A study of Mus musculus with 2 samples.

Results

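The 10 genes described here encode isozymes of the sugar-phosphorylating and sugar-splitting steps of upper glycolysis, and were taken as a named list: the hexokinases Hk1, Hk2 and Hk3, the phosphofructokinase subunits Pfkm, Pfkl and Pfkp, the aldolases Aldoa and Aldoc, and the bifunctional enzymes Pfkfb1 and Pfkfb3. All 10 symbols were found, on 11 of the 55536 gene identifiers, since a second identifier also carries the symbol Aldoa. Family shares were computed over every gene of the 4 families, which brings in others such as Hkdc1, Pfkfb2 and Pfkfb4. Total RNA-seq was done on gastrocnemius, a calf muscle, from female mice of the B6CASTF1/J strain (hybrids of C57BL/6J and CAST/EiJ) at 4 days of age. It has 1 group, for which the labels give no treatment, of 2 libraries called biological replicates 1 and 2, from animals numbered 3 and 4 and from 300 ng of RNA each. Both libraries carry a single donor record, so how independent the animals were is not known. There was no second condition, so the comparisons are between isozymes, between transcripts and between the libraries, and errors are SD over both libraries (n = 2).

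Hexokinase phosphorylates glucose and so traps it in the cell, phosphofructokinase commits it to glycolysis, and aldolase splits the resulting sugar bisphosphate into a pair of triose phosphates. The PFKFB enzymes make and degrade a signalling sugar bisphosphate that is a strong allosteric activator of phosphofructokinase. Each step has isozymes of different tissue range: in adult mammals skeletal muscle is known for Hk2, Pfkm and Aldoa, liver for Pfkl, and brain for Hk1, Pfkp and Aldoc.

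The expected counts of all genes summed to 30745756 (replicate 1) and 35977559 (replicate 2), of which the 10 genes held 89952 and 120399. Of the labelled tissue's markers, all 7 muscle fibre genes were detected, with a median of 4448 TPM (the unit of level used here, scaled for transcript length and depth). The libraries differed in RNA of other cell types. Summed levels over the 6 red cell markers were 1235 TPM in replicate 1 and 230.04 TPM in replicate 2. They were 142 and 72.8 TPM for 10 neutrophil and macrophage markers, and 10.6 and 108 TPM for 8 liver markers. All 6 red cell genes and 9 of the 10 neutrophil and macrophage genes were higher in replicate 1, and all 8 liver genes were higher in replicate 2. Markers of other types were closer: 397 and 334 TPM for 5 adipocyte genes, 5460 and 4603 TPM for 6 fibroblast and tendon genes, 207 and 190 TPM for 4 endothelial genes, 203 and 287 TPM for 9 Schwann cell and neuron genes, and 34.0 and 31.8 TPM for 4 platelet genes.

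Aldoa and Pfkm lead their families and are each annotated with several starts, to which the deposited quantifications gave different shares (below), so sequence before those starts is shown first, with that of Hk2, the leading hexokinase. The sequences are from RefSeq promoters on build GRCm38.p6, the assembly that mm10 names, written 5′ to 3′ on the gene's strand. Each is the longest stretch of the 250 bases before a start that no annotated exon covers. Capitals mark the E-box letters CANNTG and the letters ACGTG, the core of the hypoxia response element, on either strand and joined where they overlap. The 5 stretches are, in order, chr7:126800448-126800504 (minus strand, before Aldoa-203), chr7:126799255-126799504 (minus strand, before Aldoa-201), chr15:98092339-98092588 (plus strand, before Pfkm-203 and Pfkm-205), chr15:98108221-98108465 (plus strand, before Pfkm-201) and chr6:82774455-82774704 (minus strand, before Hk2-201).
Aldoa far upstream start: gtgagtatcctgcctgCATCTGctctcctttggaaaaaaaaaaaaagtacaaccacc
Aldoa near start: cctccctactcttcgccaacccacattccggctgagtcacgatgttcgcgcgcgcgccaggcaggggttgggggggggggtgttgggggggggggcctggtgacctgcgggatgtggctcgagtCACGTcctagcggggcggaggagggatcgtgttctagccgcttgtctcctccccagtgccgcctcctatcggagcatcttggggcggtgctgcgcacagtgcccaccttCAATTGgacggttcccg
Pfkm upstream start: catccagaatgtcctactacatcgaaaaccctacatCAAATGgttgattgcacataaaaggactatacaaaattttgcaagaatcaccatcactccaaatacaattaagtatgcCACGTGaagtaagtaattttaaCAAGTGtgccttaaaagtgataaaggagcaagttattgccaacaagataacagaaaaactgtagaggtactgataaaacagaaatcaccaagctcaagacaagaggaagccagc
Pfkm downstream start: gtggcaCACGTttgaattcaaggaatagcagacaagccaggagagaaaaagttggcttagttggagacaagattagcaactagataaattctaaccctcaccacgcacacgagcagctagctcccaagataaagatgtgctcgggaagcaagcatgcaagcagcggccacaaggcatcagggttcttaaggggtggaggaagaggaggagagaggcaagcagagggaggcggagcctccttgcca
Hk2 start: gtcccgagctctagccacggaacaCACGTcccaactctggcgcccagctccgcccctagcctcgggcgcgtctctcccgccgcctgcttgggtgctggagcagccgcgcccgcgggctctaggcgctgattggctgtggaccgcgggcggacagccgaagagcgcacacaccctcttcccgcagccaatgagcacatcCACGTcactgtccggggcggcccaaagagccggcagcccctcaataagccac

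The windows of 1 gene differed in base composition. Over the full 250 bases, the Aldoa far upstream window was 50.4% G or C with 0 CpG dinucleotides and 0 GC boxes (GGGCGG), whereas the near window was 67.6% G or C with 21 CpG dinucleotides and 2 GC boxes. The Pfkm upstream window was 36.4% G or C with 2 CpG dinucleotides, and the Pfkm downstream window 51.2% with 6. Only 6.24% of the 32851 windows in the table had less G and C than the Pfkm upstream window. The Hk2 window was 69.6% G or C with 25 CpG dinucleotides and 3 GC boxes, against a median of 52.4% and 6 CpG dinucleotides over all windows. All 10 genes matched the table, with 21 windows. The E-box letters were found in 16 of these 21 windows and in 66.2% of all windows. ACGTG was found in 8 of 21 and in 16.6% of all windows, and GGGCGG in 8 of 21 and in 32.7% of all windows. TATAAA was found in 1 of 21 windows and in 12.4% of all windows, and the MEF2 consensus in 1 of 21 and in 2.92% of all windows, both in the window before Pfkfb1-201. The Hk2 window held ACGTG at 2 separate places, and both Pfkfb3 windows held it. The Pfkm upstream window held CACGTG, which reads the same on both strands and is an E-box too. Matches can overlap between motifs and between neighbouring windows, and no binding was measured here.

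The hexokinase transcripts were mainly Hk2, with Hk1 second and the rest near the detection level. Hk2, the insulin-responsive hexokinase of muscle and fat, had 24.0 TPM in replicate 1 and 25.3 TPM in replicate 2, from 2653 and 3336 expected counts. Hk1, the widely expressed form that binds mitochondria, had 11.1 and 10.1 TPM (1086 and 1176 counts). Of the Hk2 level, 7.06 and 6.18 TPM came from the short processed transcript Hk2-202, on only 97.8 and 97.2 counts. The protein-coding Hk2-201 alone had 16.85 and 18.81 TPM, also above Hk1. In the other deposited quantification the Hk2 gene was 1.79-fold and 1.92-fold above Hk1. In the gene TPM given here Hk2 was above Hk1 in both libraries, by 2.16-fold in replicate 1 and 2.51-fold in replicate 2. The values did not overlap, and an exact two-sided permutation test of 2 values against 2 gave p = 0.33, the smallest it can give, as for each pair of neighbouring isozymes below whose values do not overlap. Hk3, a hexokinase known from myeloid blood cells, had 0.98 and 1.09 TPM (76 and 80 counts) and so fell just short of the detection level used here, 1 TPM in both libraries. Outside the list, Hkdc1, a hexokinase-like gene that lies 3229 bases from Hk1 on chromosome 10, had 0.48 and 0.24 TPM from 16 and 25 counts. Hk2 thus held 67.2% ± 2.32 of hexokinase TPM, Hk1 28.9% ± 2.01, Hk3 2.83% ± 0.208 and Hkdc1 0.983% ± 0.465.

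Phosphofructokinase RNA was almost wholly the muscle subunit. Pfkm had 265 TPM in replicate 1 and 303 TPM in replicate 2, from 17994 and 23842 counts, above 98.2% of detected genes. Pfkl, the liver subunit, had 7.72 and 8.11 TPM (646 and 716 counts), and Pfkp, the platelet subunit that brain also expresses, had 5.36 and 5.89 TPM (482 and 554 counts). The 3 ranges did not overlap. Pfkm was 34.4-fold above Pfkl in replicate 1 and 37.4-fold in replicate 2, while Pfkl was only 1.44-fold and 1.38-fold above Pfkp. The shares were 95.4% ± 0.202 for Pfkm, 2.66% ± 0.153 for Pfkl and 1.89% ± 0.0486 for Pfkp. Exons of Pfkp share 748 bases with Pitrm1 on the opposite strand, which had 1270 and 1519 counts. No source used here says whether counting used strand, so the level of Pfkp is uncertain.

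**Figure D1:**
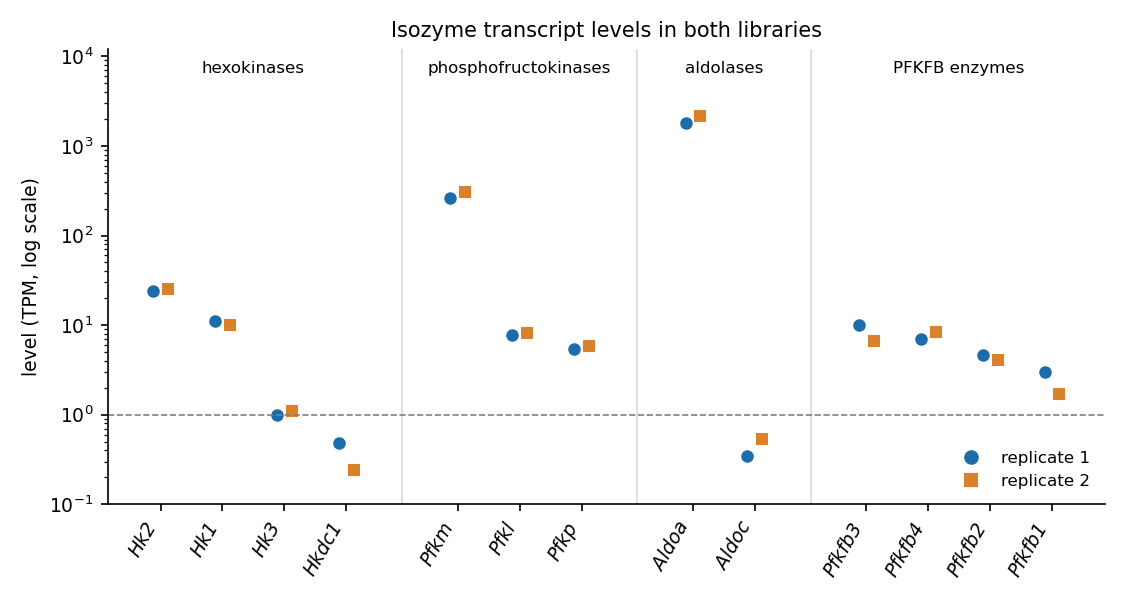
Level of the isozyme genes in TPM (log axis), replicate 1 as circles and replicate 2 as squares, grouped by family and ordered by mean; the dashed line is the detection level of 1 TPM. Aldoa (1798 and 2172 TPM) and Pfkm (265 and 303 TPM) stand above all others.

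Aldolase was the most abundant of the 4 families and was almost entirely 1 gene. Aldoa, the muscle and red cell aldolase, had 1798 TPM in replicate 1 and 2172 TPM in replicate 2, from 66181 and 90043 counts, above 99.7% of detected genes. Aldoc, the brain form, had 0.35 and 0.54 TPM from 17 and 18 counts and was not detected. Aldoa therefore held 99.93% ± 0.0516 of aldolase TPM. Copies of Aldoa were near 0: the second identifier with this symbol (chr7:126800790-126809108) had 29 and 27 counts, the retrogenes Aldoart1 and Aldoart2 had at most 6 counts in a library, and the pseudogenes had 0. In the other deposited quantification Aldoart1 had 15.1 and 11.04 counts and the pseudogene Aldoa-ps4 had 2 and 4.

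The PFKFB family was low and had no leading isozyme. Pfkfb3, the inducible form with high kinase activity, had 10.04 TPM in replicate 1 and 6.69 TPM in replicate 2, from 715 and 564 counts. Pfkfb1, first known from liver and muscle, had 2.97 and 1.71 TPM (102 and 70 counts). Of the forms outside the list, Pfkfb4, known from testis, had 6.94 and 8.27 TPM, and Pfkfb2, known from heart, had 4.62 and 4.06 TPM. Pfkfb3 was 1.45-fold above Pfkfb4 in replicate 1 and 0.809-fold in replicate 2, so the order of these 2 genes turned between libraries (exact two-sided permutation p = 1). The order Pfkfb4, Pfkfb2, Pfkfb1 was kept in both. The shares were 36.6% ± 6.07 for Pfkfb3, 34.1% ± 8.24 for Pfkfb4, 19.2% ± 0.553 for Pfkfb2 and 10.2% ± 2.71 for Pfkfb1. The family summed to 24.6 and 20.7 TPM, equal to 8.82% and 6.53% of phosphofructokinase TPM. Exons of Pfkfb1 share 123 bases with Apex2 on the opposite strand (307 and 270 counts). Those of Pfkfb2 share 154 bases with Yod1, also on the opposite strand (340 and 297 counts), so the low levels of both genes are uncertain too.

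**Figure D2:**
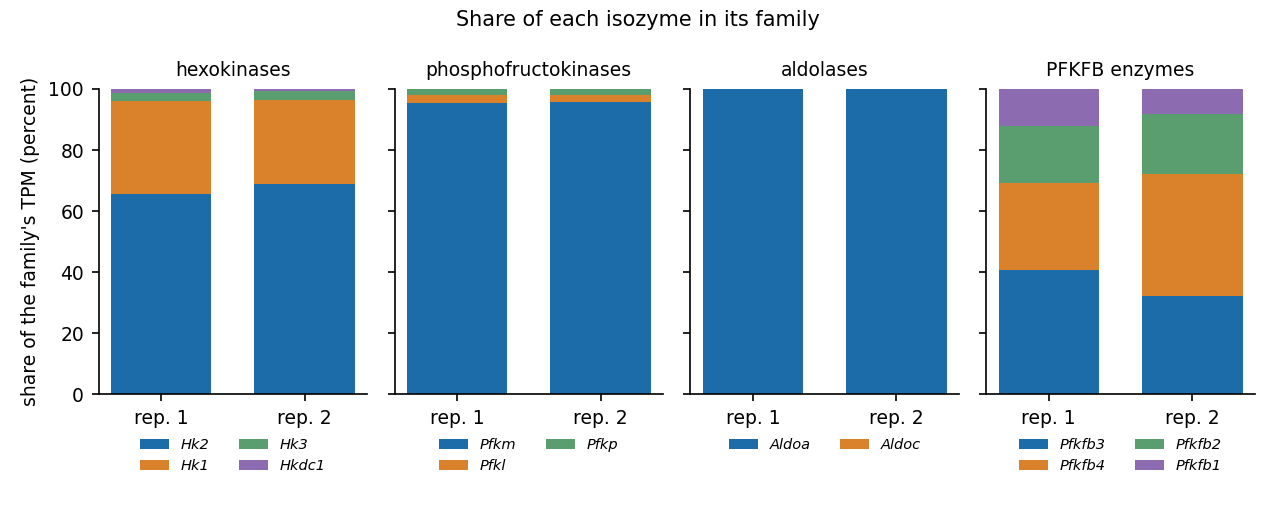
Share of each isozyme in its family's TPM (percent), replicate 1 at the left of each panel and replicate 2 at the right. Pfkm (95.4% ± 0.202) and Aldoa (99.93% ± 0.0516) fill their families, Hk2 and Hk1 divide the hexokinases, and Pfkfb3 and Pfkfb4 change places between the libraries; Aldoc is too small to be seen.

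Of the 10 listed genes 8 were detected, all but Hk3 and Aldoc, where 24.0% of all 55536 genes and 54.8% of 22028 protein-coding genes were. In order of mean TPM, Aldoa, Pfkm, Hk2 and Hk1 led with ranges that did not overlap. Hk1, at 10.1 TPM in its lower library, only just cleared Pfkfb3, at 10.04 TPM in its higher one. Below them Pfkfb3, Pfkl and Pfkfb4 overlapped each other in neighbouring order, Pfkp, Pfkfb2, Pfkfb1 and Hk3 followed without overlap, and Aldoc and Hkdc1 overlapped each other. Low values depend on the transcript lengths assigned: the effective length of Aldoc was 1754 bases in replicate 1 and 1046 in replicate 2, and that of Hkdc1 was 1191 and 3264. TPM and counts of these 2 genes therefore differ in how the libraries compare.

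Summed by step, hexokinase was the lowest of the 11 steps from glucose to lactate. The hexokinase family summed to 36.6 TPM in replicate 1 and 36.7 TPM in replicate 2, an SD of 0.0495 TPM. Phosphofructokinase, at 278 and 317 TPM, was 7.61-fold and 8.65-fold above it, and aldolase, at 1799 and 2175 TPM, was 49.2-fold and 59.3-fold above it. Glucose phosphate isomerase (Gpi1, 272 and 308 TPM), the enzyme between hexokinase and phosphofructokinase, lay close to phosphofructokinase in both libraries. Aldolase lay in the group of highest steps with glyceraldehyde phosphate dehydrogenase (Gapdh, 1896 and 2294 TPM) and enolase (1518 and 1870 TPM). In the other deposited quantification Gapdh stood above both, at 7648 and 8802 TPM. Aldolase had 3195 and 3736 TPM there, and enolase 2971 and 3512 TPM. RNA level is not enzyme activity, which was not measured.

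**Figure D3:**
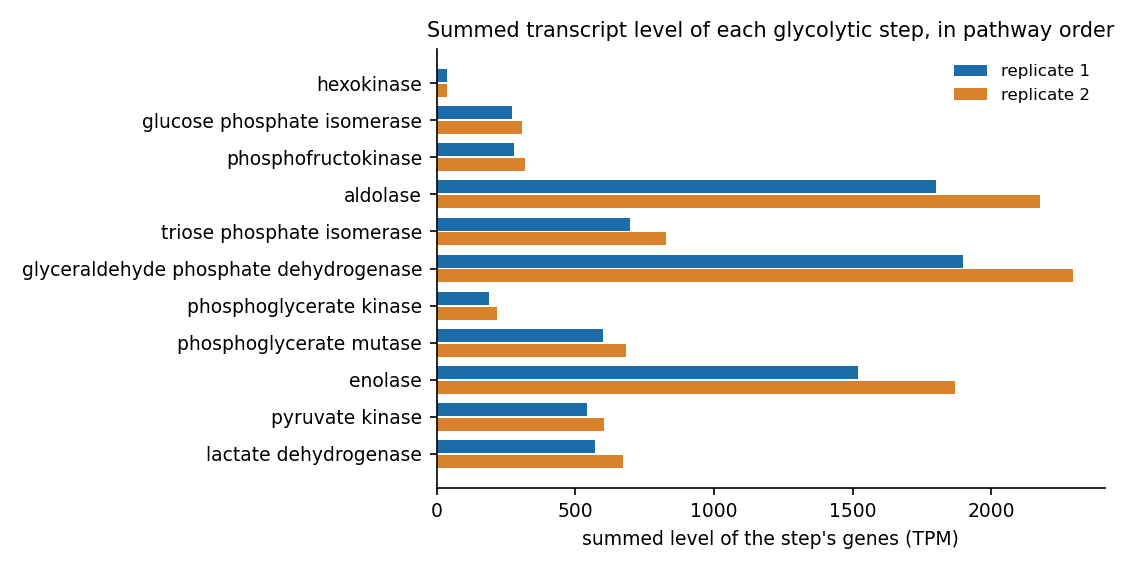
Summed TPM of the genes of each glycolytic step, in pathway order from top to bottom, with replicate 1 above replicate 2 in each pair of bars. Hexokinase (36.6 and 36.7 TPM) is the shortest pair, and aldolase (1799 and 2175 TPM) is among the longest.

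Other genes of the pathway were read from lists. Of 14 later glycolysis genes 13 were detected, with a median of 246 TPM, against 9.40 TPM over all detected genes. Gapdh, Eno3, the muscle enolase (1332 and 1683 TPM), and Tpi1, triose phosphate isomerase (696 and 827 TPM), were the highest, and Pklr, the liver and red cell pyruvate kinase, was below 1 TPM in both libraries (0.72 and 0.42 TPM). Of 9 genes of counterpart and feeder enzymes 8 were detected, with a median of 10.6 TPM. Among them Fbp2, the muscle fructose bisphosphatase, whose reaction opposes the phosphofructokinase step, had 75.8 and 85.7 TPM. Fbp1, the liver form, had 0.09 and 1.78 TPM. Pgm1, phosphoglucomutase, which links glycogen to hexose phosphate, had 172 and 197 TPM, and Gpd1, glycerol phosphate dehydrogenase, which draws on triose phosphate, had 79.96 and 81.7 TPM. All 5 glucose entry transporters were detected, led by Slc2a4, the insulin-responsive transporter (38.2 and 42.7 TPM), whose level was nearer to that of Hk2 than to those of Slc2a12 (4.68 and 5.08 TPM) and Slc2a8 (3.54 and 3.39 TPM). The 3 outer mitochondrial channels, which hexokinase binds, had a median of 104 TPM, with 266 and 307 TPM for Vdac1, 99.5 and 108 TPM for Vdac3 and 100.1 and 103 TPM for Vdac2. Vdac1 was 11.1-fold above Hk2 in replicate 1 and 12.2-fold in replicate 2. All 10 hypoxia and energy regulators were detected, with a median of 17.1 TPM. Txnip, a glucose-responsive inhibitor of glucose uptake, was highest with 104 and 139 TPM, followed by the hypoxia factor partners Arnt (25.3 and 23.0 TPM) and Epas1 (20.8 and 19.7 TPM).

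The libraries were then compared gene by gene, as the ratio of replicate 1 over replicate 2 of scaled counts. Of the listed genes 7 averaged at least 100 counts, and none of these was over 2-fold apart, where 0.718% of all 12256 such genes were, so a count of 0 of 7 is near that background. None of the 7 was over 1.5-fold apart (background 2.46%). Pfkfb1, at 1.65-fold, averaged 86 counts and so was not among them. None of all 10 was over 2-fold apart at a mean of at least 10 counts (background 3.75%). The biological coefficient of variation over 17598 genes was 0.127. With 1 library against 1 the ratios have no test, and their intervals (exact Clopper-Pearson, 95%) cover counting error only.

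The abundant muscle isozymes were slightly lower in replicate 1. The log2 ratio was -0.27 (interval -0.28 to -0.25) for Aldoa, -0.23 (-0.26 to -0.20) for Pfkm and -0.15 (-0.23 to -0.08) for Hk2. Genes of like depth leaned the same way: their median was -0.11 for 24 genes about as deep as Aldoa, -0.14 for 53 about as deep as Pfkm and -0.04 for 1315 about as deep as Hk2. The 5th percentiles of these groups were -0.26, -0.27 and -0.25, so Pfkm and Hk2 lay within that range of genes of like depth. Each group includes the gene itself. The group of 24 also holds muscle genes such as Eno3 (-0.34) and Des (-0.25). Aldoa is among its lowest values and so helps set the 5th percentile there, which therefore cannot place it. The 7 muscle fibre genes were lower in replicate 1 too, with a median of -0.25, as were 11 of the 14 later glycolysis genes (median -0.20), 8 of 9 counterpart and feeder genes (median -0.20), 4 of 5 transporters (median -0.17), all 3 channels (median -0.12) and 7 of 10 regulators (median -0.04). The 8 counterpart and feeder genes include Fbp1, the liver form, at -3.61. Of all 13265 detected genes averaging at least 10 counts, 7255 were lower in replicate 1 (median -0.02). The regulators lay near that background. In bulk tissue fewer muscle fibres and less RNA of the muscle isozymes per fibre cannot be told apart. Scaling by spike-ins in place of genes moves the median of all genes by 0.14, to 0.14 from 0.00. The same step brings Aldoa to -0.13, Pfkm to -0.09 and Hk2 to -0.01, each still below that median. The list medians become -0.11 for muscle fibre genes, -0.06 for later glycolysis and for counterpart and feeder genes, and -0.03 for transporters. Those of channels and regulators become 0.02 and 0.10, above 0 but below the median of all genes.

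The isozymes of wider tissue range had ratios near 0. Hk1 was at 0.06 (-0.06 to 0.18), Pfkl at 0.03 (-0.13 to 0.18) and Pfkp at -0.02 (-0.20 to 0.16), and with scaling by genes each interval holds 0. With spike-ins, where the median of all genes is 0.14, Hk1 is at 0.20, Pfkl at 0.17 and Pfkp at 0.12. Hk3 was at 0.10 (-0.37 to 0.57) and Aldoc at 0.08 (-0.95 to 1.13), too few counts to place. Over the 10 neutrophil and macrophage markers the median was 1.28, but the list was uneven. Its neutrophil genes S100a8, S100a9, Ltf, Ngp and Mpo lay between 1.95 and 3.03, above the interval of Hk3. Of its other genes, Csf1r (0.15), C1qb (0.08), Lyz2 (0.42) and Adgre1 (-0.14) lay inside that interval, and Ptprc (0.61) lay just above it. The part of these cells in the Hk3 value was not tested. The exons of Hk3 share 34 bases with Unc5a on the opposite strand (220 and 276 counts).

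Pfkfb3 and Pfkfb1 were the listed genes that leaned most to replicate 1. Their log2 ratios were 0.52 (0.36 to 0.68) and 0.70 (0.27 to 1.18), or 1.43-fold and 1.65-fold. The 95th percentile was 0.27 for 2242 genes about as deep as Pfkfb3 and 0.83 for 1249 about as deep as Pfkfb1. Pfkfb3 thus lay above the range of genes of like depth, and Pfkfb1 within it. Pfkfb2 was at 0.20 (-0.03 to 0.43) and Pfkfb4 at -0.15 (-0.32 to 0.02). Adipocyte markers were higher in replicate 1 in 4 of 5 cases (median 0.34), fibroblast and tendon markers in 5 of 6 (median 0.17), and the 3 platelet markers with enough counts in all 3 (median 0.83). The platelet marker of highest TPM, Pf4, was at 0.01 (-0.21 to 0.23), with Itga2b at 0.83 and Ppbp at 1.24. Endothelial genes had a median of -0.12 and Schwann cell and neuron genes of -0.26. The part of these cell types in the Pfkfb values was not tested. The largest differences between the libraries among the marker lists were the median of -3.35 for the 8 liver markers and that of 2.65 for the 6 red cell markers.

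**Figure D4:**
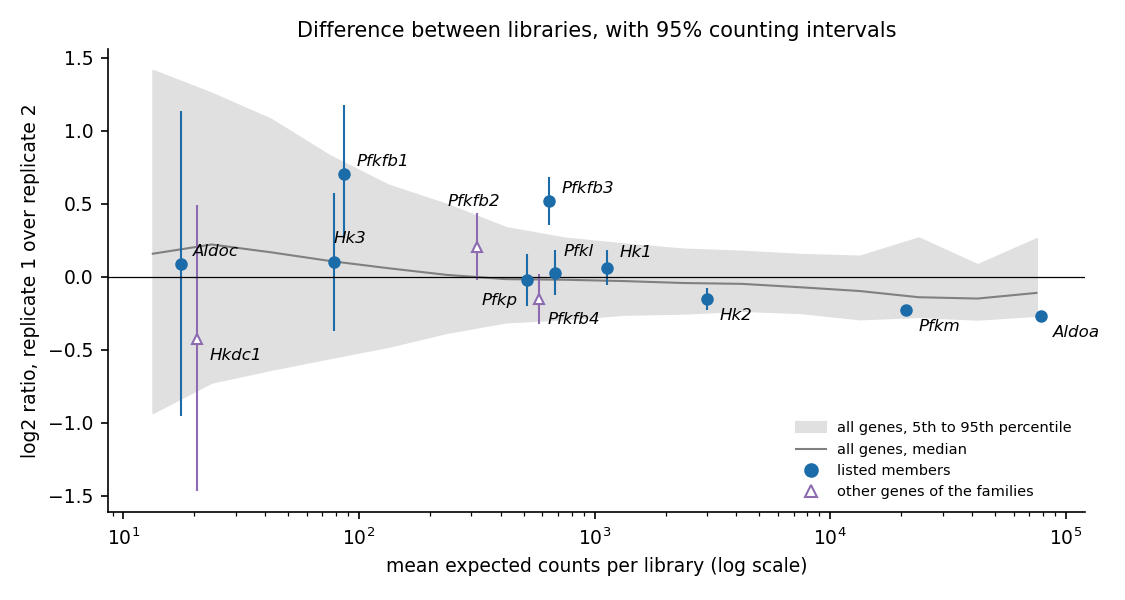
Log2 ratio of replicate 1 over replicate 2 against mean expected counts per library (log axis), with 95% counting intervals; filled circles are listed genes, open triangles are Hkdc1, Pfkfb2 and Pfkfb4, and the grey band spans the 5th to 95th percentile of all genes of like depth. Aldoa, Pfkm and Hk2 lie just below 0, and Pfkfb3 lies above the band.

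For Aldoa and Pfkm the deposited quantifications placed the transcripts at different starts. In the gene-table quantification, transcripts of the far upstream first exon of Aldoa held 43.7% of its TPM in replicate 1 and 46.3% in replicate 2, nearly all of it Aldoa-203 (784 and 1005 TPM). Transcripts of the near first exon, 1193 bases downstream, held 46.4% and 42.5%, mainly Aldoa-201 (804 and 893 TPM), and the middle first exon, nearly all Aldoa-210, held 8.91% and 10.5%. The other deposited quantification put 88.8% and 89.1% on the near first exon and 4.25% and 5.26% on the far upstream one. There Aldoa-203 had 4.22e-05 and 0.00040 TPM, while Aldoa-201 had 1558 and 1938 TPM and Aldoa-202 had 1204 and 1301 TPM. Within each quantification the libraries were close, with SD of at most 2.78 percentage points, and between the quantifications the near share was 44.5% and 88.9%. The use of the far upstream start, which lacks CpG dinucleotides in the window above, therefore cannot be stated from these tables, whereas the gene's counts were close in both quantifications (66181 and 90043 expected counts in the gene tables, 66153 and 90431 estimated counts in the other).

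Pfkm showed the same kind of difference on a smaller scale. Its upstream first exon held 63.2% and 59.7% of TPM, mostly Pfkm-205 (133 and 148 TPM). The short Pfkm-203 of that exon held 13.0% and 10.8% of the gene's TPM from only 327 and 354 counts. The downstream first exon of Pfkm-201, 15877 bases from the outermost upstream start, held 36.8% and 40.2% (97.6 and 122 TPM). In the other quantification the upstream exon held 43.3% and 40.6%, and the downstream one 27.1% and 30.3%. The remainder there was Pfkm-204, a short transcript with 29.6% and 29.2% (158 and 175 TPM), which the gene-table quantification listed at 0 in replicate 1 and at 0.13 TPM in replicate 2. The upstream exon had more than the downstream one in both libraries and under both quantifications.

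**Figure D5:**
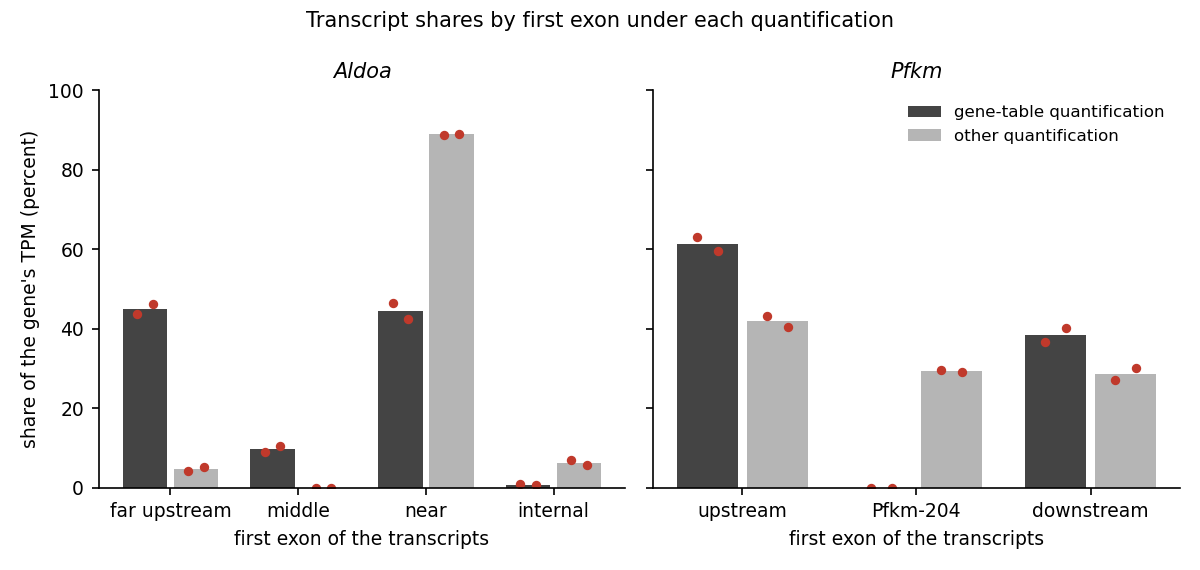
Share of the TPM of Aldoa (left) and Pfkm (right) by the first exon of the transcripts, as the mean of both libraries (bars) with each library as a dot, replicate 1 left of replicate 2; dark bars are the gene-table quantification and light bars the other one. The near exon of Aldoa takes 44.5% in the gene-table quantification and 88.9% in the other, and Pfkm-204 takes 29.4% in the other quantification alone.

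The leading transcripts of the other listed genes rested on fewer reads than those of Aldoa and Pfkm. Hk2-201 held 70.2% of Hk2 TPM in replicate 1 and 74.5% in replicate 2, and the short processed transcript Hk2-202 held 29.4% and 24.5% from only 97.8 and 97.2 counts. Of Hk1, Hk1-202 held 44.8% and 59.0%, Hk1-201 held 24.1% and 20.2%, and Hk1-205 held 23.7% and 14.5%. These 3 have different first exons. In the other quantification Hk1-205 led with 41.2% and 38.1%, Hk1-201 held 36.4% and 22.2%, and Hk1-202 held 15.3% and 22.7%. Pfkl-201 held 77.5% and 71.9% of Pfkl, and the short Pfkl-202 and Pfkl-207 reached 15.1% in replicate 2 and 10.2% in replicate 1. Of Pfkp, Pfkp-201 held 51.2% and 41.9% and Pfkp-207 held 17.9% and 23.4%, while the retained intron forms Pfkp-212 and Pfkp-206 reached 10.4% in replicate 1 and 12.03% in replicate 2. Hk3-201 held 85.6% and 69.7% of Hk3, Hk3-205 held 13.4% and 17.4%, and Hk3-207 held 12.8% in replicate 2 alone. Pfkfb3 was spread over 21 annotated transcripts: Pfkfb3-206 led with 33.2% and 26.8%, followed by Pfkfb3-219 in replicate 1 (16.7%, a retained intron form) and by Pfkfb3-205 in replicate 2 (23.7%). Pfkfb1-201 held 29.0% and 36.0% of Pfkfb1 from 39.6 and 32.4 counts and Pfkfb1-203 held 19.2% and 19.8%. Pfkfb1-206 held 14.5% and 11.6%, Pfkfb1-202 held 16.5% and 6.98%, and Pfkfb1-204 held 9.76% and 15.7%. Aldoc-202 held 85.7% and 44.4% of Aldoc from 13.3 and 12.2 counts. Aldoc-206 was listed at 0 in replicate 1 and held 55.6% in replicate 2, more than Aldoc-202 there, and Aldoc-201 held 14.3% in replicate 1 and was listed at 0 in replicate 2, so transcript shares of these 2 genes rest on very few reads.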

How the data were processed

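Total RNA of 2 gastrocnemius libraries was analysed. Per the labels, a tissue kit was used for purification, and the ERCC spike-in profile was that for stranded, ribosomal RNA-reduced libraries. The authors deposited, per library, gene and transcript tables of expected (estimated) counts and TPM, here called the gene-table quantification, and transcript tables of estimated counts and TPM from another quantification, which were summed per gene as an alternative. Per the file headers and labels, the build was mm10 with GENCODE M21. Aligner, programs and handling of strand: not given in the sources used here. Reads of the CAST/EiJ allele were counted on the C57BL/6J reference. Symbols were joined by gene identifier, and coordinates (1-based) are from GENCODE M21.

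Shares are percent of the family's or gene's deposited TPM. Transcripts with at least 10% of their gene's TPM in a library were named, with the family genes (some are counted in the family sums and not reported here) and, of each of 5 pathway lists, the 3 highest genes and those under 1 TPM. The 9 marker lists are given as counts and sums. Genes named in addition as copies, as members of a marker list or because they overlap a listed gene or make up a glycolytic step were chosen after their values were seen. First exons of Aldoa and Pfkm were grouped after their values were seen. Expected counts were rounded. edgeR 4.0.16 (R 4.3.3) gave TMM scaling (genes averaging 10 or more counts), log2 ratios with a prior count of 2 and a biological coefficient of variation from an intercept-only design; the step was checked on simulated data. Calls between libraries are by size alone, since with 1 library on each side no p-value is possible. Intervals cover counting error only, as reads here carry no stated molecular identifiers and may repeat molecules. Alternatives were scaling by spike-ins, by library size or by DESeq2 1.42.0, other thresholds, expected counts, posterior mean TPM and the other quantification. Python 3.11.15, pandas 2.3.3, scipy 1.17.1 and matplotlib 3.10.9 were used. The genes, lists and rules were chosen with earlier results of these data known.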

Additional observations from a re-analysis of the deposited data

How the results depend on the processing

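Hk2, Pfkm and Aldoa kept the largest share of their families under every alternative tried. From expected counts, the other quantification and posterior mean TPM, Hk2 had 70.7%, 62.2% and 62.9% of hexokinase against 67.2% as reported, and Pfkm had 94.5%, 95.7% and 94.7% of phosphofructokinase against 95.4%, shifts beyond the SD between libraries. Aldoa had 99.86% of aldolase with its copies added. Pfkfb3 had 78.4% when Pfkfb3 and Pfkfb1 alone formed its family, by construction, and 31.3% in the other quantification, where Pfkfb4 had 38.6% on average and the order of these genes again turned between libraries (34.97% for Pfkfb3 and 33.3% for Pfkfb4 in replicate 1, 27.6% and 43.8% in replicate 2). Leaving out each replicate in turn gave 65.6% to 68.9% for Hk2, 95.3% to 95.6% for Pfkm, 99.89% to 99.97% for Aldoa and 32.3% to 40.9% for Pfkfb3, and with 2 libraries such values cannot fall outside the SD.

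The number of detected genes was 9 at 0.5 TPM, 7 at 5 TPM, 9 in the other quantification and 8 or 9 in single libraries. The number over 2-fold apart stayed at 0 under each alternative scaling, threshold and quantification, each changed alone. With spike-ins Pfkfb3, at a log2 ratio of 0.66, would be over 1.5-fold apart. The other quantification gave higher TPM for all 10 genes (3463 TPM for Aldoa and 567 TPM for Pfkm), so levels hold within a quantification only. Of 10 leading transcript shares it moved 5 beyond the SD between libraries, and the cause was not tested. Genes under 100 counts, Hk3, Aldoc and Pfkfb1, are limited by depth. No pairing between conditions was possible, because there is 1 group. The permutation test between isozymes took their values as independent, although each library gave a value of both.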
